A study of Arabidopsis thaliana with 18 samples.

Results

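The question addressed here is whether bru1 seedlings answered a heat treatment differently from wild type within the first hours. For each probe set of an Affymetrix ATH1 array, the change in the wild type Col was subtracted from the change in bru1, each change being the mean 4 h after heat minus the mean of the untreated control. This difference of differences, called the interaction, is on the log2 scale. A value above 0 means that the level went up further, or down less, in bru1. It rests on 12 of the 18 arrays of the series, with 3 arrays in each of 4 groups, and it was computed for 22746 probe sets. Its standard errors (SE) and p-values use a spread pooled over all 18 arrays, so the scatter at 52 h enters them.

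Col is the Columbia wild type of Arabidopsis thaliana. The other genotype is labelled bru1, with no allele named in the labels. Seedlings aged 4 d had grown on GM medium with 1% glucose under 16 h of light at 23 °C and 8 h of dark at 21 °C. Heat began 6 h after dawn and consisted of 1 h at 37 °C, 1.5 h at 23 °C and 45 min at 44 °C. Untreated controls were taken at the 4 h time point, at the same hour of the day as the heated seedlings. RNA came from whole samples of each group, in which fewer cells of a type and less RNA per cell cannot be told apart. The labels describe the 3 arrays of a group as biological replicates without stating how they were separated.

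Plants exposed to a survivable heat step make heat shock proteins, which hold and refold damaged proteins, and part of this state outlasts the heat as heat stress memory. Heat also affects the endoplasmic reticulum, where misfolded proteins set off the unfolded protein response, and the mitochondria and chloroplasts, whose redox state acts on nuclear genes. BRU1, also called TONSOKU, is a nuclear protein that protects the genome during DNA replication, and mutants are known for released gene silencing and disturbed meristems. Its own transcript is not analysed here.

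The interaction passed an adjusted p of 0.05 (limma, Benjamini-Hochberg over all probe sets tested) at 78 probe sets, or 0.343% of those tested. Of these, 40 (0.176%) lay above 0 and 38 (0.167%) below. At least 2-fold differences were reached by 29 probe sets above 0 (0.127%) and 21 below (0.0923%). Without adjustment, 1511 probe sets (6.64%) passed 0.05 above 0 and 1455 (6.4%) below. The response to heat within each genotype was much broader, with 8274 probe sets called in Col (36.4%) and 8957 in bru1 (39.4%). The genotypes differed at 2352 probe sets in the controls (10.3%) and at 3048 at 4 h (13.4%). The interaction taken 52 h after heat was called at 27 probe sets (0.119%), and the difference between the interactions at 4 h and 52 h at 131 (0.576%). Genes could be named for 42 of the 78 probe sets, 20 above 0 and 22 below, while 4 had several genes and 32 are not listed in the table used here.

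Most of the 78 interactions joined estimates of opposite direction. Above 0, the Col estimate was down and the bru1 estimate up for 22 probe sets, both were down for 10 and both up for 8. Below 0, the Col estimate was up and the bru1 estimate down for 24, both were down for 9 and both up for 5. In 14 cases the change was past the threshold in each genotype on its own, in opposite directions. The genotypes were further apart at 4 h than in the controls for 23 of the probe sets above 0 and 21 of those below, and closer together for 17 of each.

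**Figure D1:**
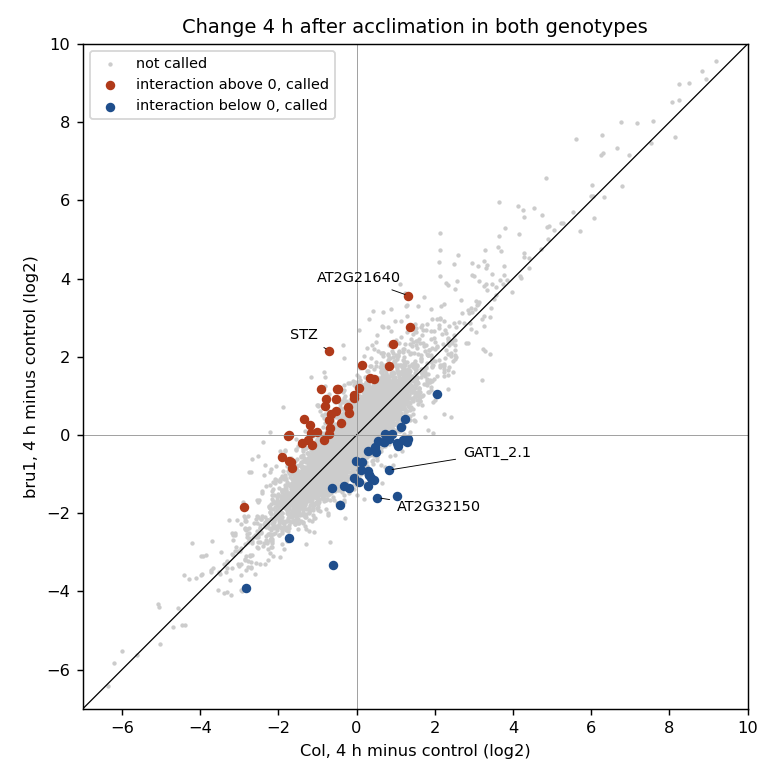
Change 4 h after heat in Col (horizontal axis, log2) against that in bru1 (vertical axis, log2) for 22746 probe sets, with the diagonal of equal change. The 40 probe sets called above 0 (red) lie above the diagonal and the 38 called below 0 (blue) lie below it, most of them at changes far smaller than the strongest heat responses in grey.

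The number of calls was sensitive to single arrays. Array medians lay between 6.48 and 6.547, and within the 4 groups an array's mean correlation with its own group was 0.992 to 0.9957. The lowest was that of replicate 2 of Col at 4 h, with 0.9933 and 0.9934 for its partners, so all arrays were close over all genes. However, replicate 2 of Col at 4 h and replicate 2 of bru1 at 4 h lay nearest to the other genotype for STZ, FES1A and further genes given below. Without that Col array the fit called 301 probe sets, and without that bru1 array 405. Leaving out both, an alternative chosen after seeing the data, gave 806 calls, 560 above 0 and 246 below, including all 78. Since these arrays were picked for lying between the genotypes, leaving them out widens the difference by construction. Leaving out any of the other 10 arrays gave between 7 and 36 calls, with 7 for replicate 1 of Col at 4 h and 9 for replicate 3 of the bru1 controls.

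Of the 31 named genes past the threshold, none changed sign in the 21 alternatives, but only 5 kept their call in all of them. These 5 were AT4G36600 above 0 and AT2G32150, GAT1_2.1, AT2G44380 and AT5G43520 below. For the remaining 26, at least 1 alternative left the direction but not the call.

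Among genes of oxidative and mitochondrial stress, 3 of 7 measured members were called above 0 and none below, beside 0.176% of all probe sets called above 0. STZ (AT1G27730), a zinc finger repressor induced by many stresses, had the largest interaction of the named genes. Its log2 level was 7.99, 7.80 and 7.30 in the Col controls and 6.64, 8.25 and 6.10 in Col at 4 h. In bru1 it was 6.74, 6.36 and 6.38 in the controls and 8.67, 7.95 and 9.34 at 4 h. All bru1 arrays at 4 h stood above the bru1 controls, whereas the Col arrays at 4 h lay on both sides of their controls, and replicate 2 of each genotype brought the 4 h groups into overlap. The interaction was 2.86 ± 0.56 (SE, n = 3 arrays per group; adjusted p = 0.0415 in limma), from a change of -0.70 in Col that did not pass (adjusted p = 0.194) and a rise of 2.16 in bru1. Its adjusted p ran from 1.63e-05 to 0.142 over the alternatives.

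AT2G21640, which encodes a protein used as a marker of oxidative stress in mitochondria, rose in both genotypes. Levels were 6.61, 6.90 and 6.91 in the Col controls against 8.30, 7.87 and 8.23 at 4 h. In bru1 they went from 6.74, 6.71 and 6.96 to 10.42, 10.08 and 10.60. The controls of the genotypes overlapped and the 4 h groups were fully apart, by 2.23 log2 units between means (adjusted p = 0.000206). The rise was 1.33 in Col and 3.56 in bru1, and the interaction 2.24 ± 0.47 (SE; adjusted p = 0.049), and the call was lost in 14 of the 21 alternatives.

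NDB2 encodes an NAD(P)H dehydrogenase on the outer face of the inner mitochondrial membrane, part of the alternative respiratory chain. It stood at 8.41, 8.64 and 8.52 in the Col controls and at 8.22, 8.65 and 8.51 in Col at 4 h. The bru1 levels were 8.35, 7.97 and 8.27 in the controls and 9.28, 8.79 and 9.56 at 4 h. Col arrays overlapped between conditions, and each bru1 array at 4 h was above all other arrays of the comparison. The interaction was 1.08 ± 0.22 (SE; adjusted p = 0.0482 in limma, up to 0.17 over the alternatives). The other 4 members were not called: AT5G43450 had an interaction of 0.68, the glutathione transferase gene GSTU25 0.36, the peroxidase gene AT5G64120 0.01, and PRX52, another peroxidase gene, was below the mark of 4.393 at 4 h in both genotypes, so that its size is not settled. This mark is the largest lower quartile among the arrays, and means up to it are not shown to be above background. The median of the list was 0.68, beside 0.0057 over all probe sets tested.

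Late embryogenesis abundant (LEA) proteins are hydrophilic proteins that accumulate in drying seeds and protect membranes and enzymes. Of 36 measured LEA genes, 5 were called above 0 and none below, with a list median of 0.18, beside 0.176% of all probe sets called above 0. The count fell to 1 with a replicate block and without Col control 1 or 3, Col 4 h replicate 1 or 3, any 1 of the bru1 controls, or bru1 4 h replicate 3, and to 2 without bru1 4 h replicate 1. The list was put together after levels of some of its genes were known from these arrays, so its count is not independent evidence of a direction. In all 5 the estimated change was below 0 in Col and above 0 in bru1. AT3G15670 had levels of 6.28, 5.40 and 6.25 in the Col controls and 5.36, 5.49 and 4.37 in Col at 4 h. In bru1 the levels were 6.92, 7.22 and 7.22 in the controls and 8.23, 8.69 and 7.99 at 4 h, so that the genotypes did not overlap in either condition and stood further apart after heat. Its interaction was 2.08 ± 0.43 (SE; adjusted p = 0.0472), and the call was lost in 13 of the 21 alternatives.

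AT3G53040 was at 5.56, 4.83 and 5.58 in the Col controls, 4.75, 5.12 and 4.62 in Col at 4 h, 6.17, 6.07 and 5.89 in the bru1 controls and 7.22 on each of the 3 bru1 arrays at 4 h. Its interaction was 1.66 ± 0.31 (SE; adjusted p = 0.0312). For AT4G21020, the dehydrin gene LEA (AT2G21490) and AT4G36600, the Col mean at 4 h did not exceed the 4.393 mark. Their interactions of 1.54, 1.43 and 1.08 are therefore lower bounds. AT4G36600 was the steadiest: 4.71, 4.44 and 4.53 in the Col controls, 3.79, 3.85 and 3.94 in Col at 4 h, 4.58, 4.61 and 4.81 in the bru1 controls and 5.01, 5.18 and 4.95 in bru1 at 4 h. The controls overlapped between genotypes and the 4 h arrays did not. Its adjusted p was 0.00462, no higher than 0.0273 in any alternative.

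Genes of seed maturation and reserves were measured for 8 list members, of which 1 was called above 0, beside 0.176% of all probe sets. This was AT3G54940, which encodes a papain-type cysteine protease. Its levels were 5.58, 5.17 and 5.67 in the Col controls, 4.26, 4.27 and 4.30 in Col at 4 h, 8.17, 8.30 and 8.03 in the bru1 controls and 8.40, 8.72 and 8.19 in bru1 at 4 h. Here the gap between genotypes was already 2.70 log2 units in the controls and reached 4.16 at 4 h, and the Col level at 4 h is a bound, so the interaction of 1.46 ± 0.25 (SE; adjusted p = 0.0253) is at least that size. ICL, isocitrate lyase of the glyoxylate cycle that turns seed oil into sugar, had 1.56 ± 0.55 (SE) and was not called (adjusted p = 0.228). AT1G04560, which encodes a membrane protein of the AWPM-19 family, is not on the list and had levels of 6.14, 5.38 and 6.44 falling to 4.56, 4.68 and 4.67 in Col, and of 6.88, 6.64 and 6.73 beside 6.96, 7.42 and 7.08 in bru1. Its interaction was 1.76 ± 0.29 (SE; adjusted p = 0.0212).

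The summed linear signal of the 8 seed genes, of which ICL alone made up 61.7 to 79.5%, ranged from 649.5 to 1146 in the Col controls, 386.9 to 514.1 in Col at 4 h, 2067 to 2728 in the bru1 controls and 2788 to 3592 in bru1 at 4 h. Without ICL the sum was 167.4 to 234.4, 127 to 133.1, 776 to 855.7 and 760.1 to 950.6 in these groups, so that the heated and control bru1 arrays overlapped. Members differed in direction: AT2G25890 had an estimate of -0.20, a lower bound of the signed value since its Col mean at 4 h did not exceed the mark, and was not called. The summed signal of the 36 LEA genes was higher at 4 h in both genotypes. It ranged from 9973 to 11220 in the Col controls and 18900 to 22220 in Col at 4 h, and from 14140 to 14860 in the bru1 controls and 26510 to 28350 in bru1 at 4 h. Group means of the seed genes were no higher than 4.393 for 2 of the 8 genes in the Col controls, 5 in Col at 4 h and 1 in each bru1 group. A part of seed or embryo material in the LEA and seed interactions was not tested.

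**Figure D2:**
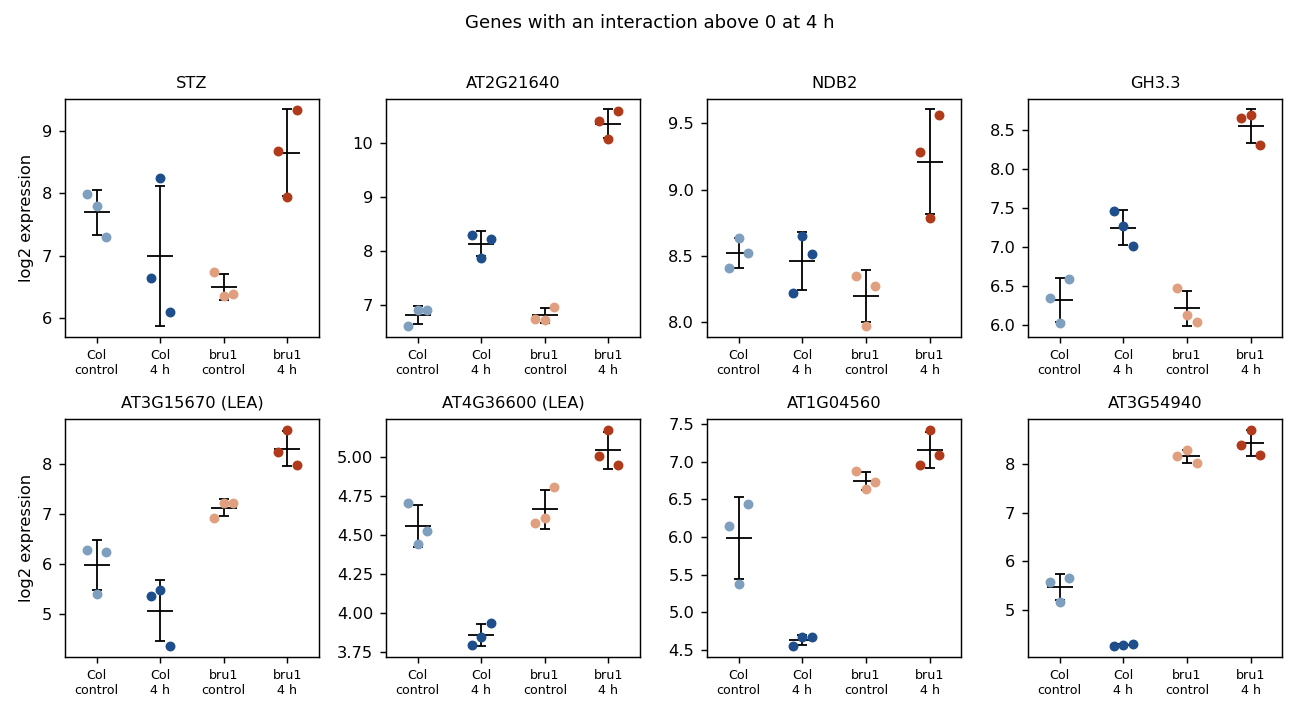
Log2 expression of 8 genes called above 0 in the 4 groups, 1 point per array (replicates 1 to 3 from left to right), with bars for the mean and SD. The bru1 arrays at 4 h are the highest group in each panel by their mean, and STZ shows replicate 2 of both genotypes at 4 h close together.

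Hormone and other genes above 0 were few. GH3.3 encodes an enzyme joining auxin to amino acids. Of 6 measured auxin response genes it alone was called above 0, beside 0.176% of all probe sets. It rose from 6.35, 6.03 and 6.59 to 7.46, 7.26 and 7.02 in Col and from 6.47, 6.13 and 6.04 to 8.65, 8.69 and 8.30 in bru1. The controls overlapped and the 4 h groups were apart, giving an interaction of 1.41 ± 0.27 (SE; adjusted p = 0.0364). For the related gene WES1 (GH3.5) the interaction was -0.06 and not called, and GH3.1 was not above the 4.393 mark in any of the 4 groups. Further genes above 0 were AT1G31335 (1.63), AT5G63130 (1.19), AT1G64460 (1.13) and AT5G45690 (1.14), the last with only its bru1 mean at 4 h above the 4.393 mark, so that its size is not settled. For AT1G31335, bru1 minus Col was -1.06 in the controls (limma adjusted p = 0.0033) and 0.57 at 4 h (adjusted p = 0.0874). For AT5G63130 it was -0.78 (adjusted p = 0.00729) and 0.41 (adjusted p = 0.131), so both genes differed past the threshold only in the controls.

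Below 0, the 4 genes that kept their call throughout share a rise in Col. AT2G32150, which encodes a hydrolase of the haloacid dehalogenase family, had the largest interaction of the named genes below 0. Its levels were 8.88, 9.09 and 9.01 in the Col controls and 9.59, 9.68 and 9.29 in Col at 4 h. In bru1 they were 9.29, 9.80 and 9.56 in the controls and 7.81, 8.28 and 7.77 at 4 h. The Col arrays at 4 h were all above the Col controls, while the bru1 arrays at 4 h lay below every other array of the comparison. The rise of 0.53 in Col (adjusted p = 0.0329) and the change of -1.60 in bru1 (adjusted p = 2.65e-06) gave an interaction of -2.13 ± 0.26 (SE; adjusted p = 0.00462, at most 0.0273 over the alternatives).

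GAT1_2.1 encodes a protein with a class I glutamine amidotransferase domain. It went from 6.21, 6.49 and 6.36 to 6.96, 7.31 and 7.23 in Col and from 6.37, 6.60 and 6.11 to 5.37, 5.22 and 5.79 in bru1. Control arrays overlapped, with means 0.0048 apart, and at 4 h the genotypes had moved to opposite sides of them. The interaction was -1.71 ± 0.23 (SE; adjusted p = 0.00462).

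The other such genes, AT2G44380 and AT5G43520, both encode proteins with cysteine- and histidine-rich C1 domains. AT2G44380 rose from 7.13, 7.37 and 7.54 to 8.39, 8.27 and 8.45 in Col, beside 7.01, 7.24 and 7.03 in the bru1 controls and 6.83, 7.01 and 6.83 in bru1 at 4 h. AT5G43520 rose from 4.84, 4.92 and 4.84 to 6.49, 6.18 and 5.88 in Col, and its bru1 means in both conditions were no higher than 4.393. For both genes the bru1 arrays overlapped between conditions and their change did not pass (adjusted p = 0.223 and 0.627). The interactions were -1.23 ± 0.18 (SE; adjusted p = 0.00945) and -1.41 ± 0.19 (SE; adjusted p = 0.00462), the second with its size not settled.

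Autophagy carries cytoplasm and organelles to the vacuole in vesicles whose membranes bear ATG8, a small ubiquitin-like protein joined to lipid. Of 14 measured autophagy genes, 2 were called below 0 and none above, beside 0.167% of all probe sets called below 0, and both belong to the ATG8 family. None was called with a replicate block or without Col control 1 or 3, Col 4 h replicate 1 or 3, any 1 of the bru1 controls, or bru1 4 h replicate 1 or 3, and 1 was called without Col control 2. The autophagy list was added after values were seen. ATG8E went from 7.98, 8.41 and 8.35 to 9.29, 8.96 and 8.99 in Col, beside 8.22, 8.16 and 8.19 in the bru1 controls and 7.99, 8.33 and 7.98 in bru1 at 4 h. Heated Col arrays thus stood above all others, and the bru1 groups overlapped. The interaction was -0.93 ± 0.18 (SE; adjusted p = 0.0352, up to 0.113 over the alternatives).

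ATG8F differed from ATG8E in its starting level. It was 9.88, 10.03 and 9.76 in the Col controls, 10.74, 10.55 and 10.58 in Col at 4 h, 10.43, 10.35 and 10.38 in the bru1 controls and 10.34, 10.62 and 10.27 in bru1 at 4 h. The bru1 controls were already above the Col controls by 0.50 (adjusted p = 0.00444), and at 4 h replicate 2 of bru1 reached the Col range. The interaction was -0.71 ± 0.15 (SE; adjusted p = 0.0472, up to 0.163 over the alternatives).

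All 9 measured ATG8 genes had estimates below 0, from -0.93 to -0.32 with a median of -0.50, and 7 of them passed 0.05 without adjustment, beside 6.4% of all probe sets below 0. Each of the 9 rose past the threshold in Col, with a median change of 0.86. In bru1, 5 did so, with a median change of 0.30. Over all probe sets, 36.4% were called at 4 h in Col and 39.4% in bru1, rises and falls together. The family's median level was 7.98, 8.29 and 7.97 in the Col controls and 8.32, 8.29 and 8.43 in the bru1 controls. At 4 h it was 9.27, 8.90 and 8.93 in Col and 9.02, 9.13 and 9.09 in bru1, so the genotypes overlapped there. Probe sets of one family can share sequence, so the 9 are not independent. Outside the family, the 5 other autophagy genes had estimates from -0.08 to 0.22 with a median of -0.02, and none passed without adjustment.

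RR16 is a response regulator that dampens cytokinin signalling. Of 2 measured cytokinin response genes it alone was called below 0, beside 0.167% of all probe sets. It rose from 5.18, 5.43 and 4.96 to 6.59, 6.32 and 6.21 in Col, and stood at 6.13, 5.62 and 6.01 in the bru1 controls and 5.49, 6.26 and 5.61 in bru1 at 4 h. Again the bru1 array of replicate 2 at 4 h was the one nearest to Col. The interaction was -1.32 ± 0.26 (SE; adjusted p = 0.042), and that of its relative ARR15 was -0.39 and not called.

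In a further set of genes the bru1 level fell while the changes in Col were small, at -0.19 for MSRB5, 0.29 for AT1G72900 and -0.32 for AT2G29340, of which only the last passed. MSRB5, which encodes an enzyme that repairs oxidised methionine, was at 10.84, 10.83 and 10.58 in the Col controls, 10.76, 10.34 and 10.57 in Col at 4 h, 10.60, 10.52 and 10.81 in the bru1 controls and 9.17, 9.46 and 9.20 in bru1 at 4 h. The first 3 groups overlapped and the bru1 arrays at 4 h lay more than 0.8 log2 units below them. Its interaction was -1.17 ± 0.22 (SE; adjusted p = 0.0352). AT1G72900, which encodes a protein with TIR and nucleotide-binding domains of the disease resistance type, had -1.59 ± 0.28 (SE; adjusted p = 0.0253), from 8.54, 8.12 and 8.36 in the bru1 controls to 7.22, 6.92 and 6.95 at 4 h. For this gene bru1 minus Col was 0.80 in the controls (limma adjusted p = 0.0149) and -0.79 at 4 h (adjusted p = 0.0135). AT2G29340, a short-chain dehydrogenase gene, had -0.97 ± 0.15 (SE; adjusted p = 0.0156), from 10.28, 10.29 and 10.43 to 9.04, 9.07 and 8.98 in bru1.

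Other named genes below 0 differed in form. AT2G15960 rose in both genotypes, by 2.05 in Col and 1.06 in bru1. Its level was already higher in the bru1 controls by 0.92 (limma adjusted p = 0.000346), and at 4 h the difference was -0.07 (adjusted p = 0.822). AT4G25780, of the CAP family of secreted proteins, fell in both, with changes of -1.72 and -2.63. AT3G02820, which encodes a zinc knuckle protein, rose by 0.51 in Col and had a change of -0.43 in bru1, each past the threshold, with an interaction of -0.93. AT3G15630 had -1.21. The beta-glucosidase gene BGLU33 (-1.08) and the peroxidase gene AT4G08780 (-1.38) had both genotypes at or below the 4.393 mark at 4 h, so that the sizes are not settled. The control level of BGLU33 was higher in bru1 by 1.07, and that of AT4G08780 was above the mark in bru1 alone.

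**Figure D3:**
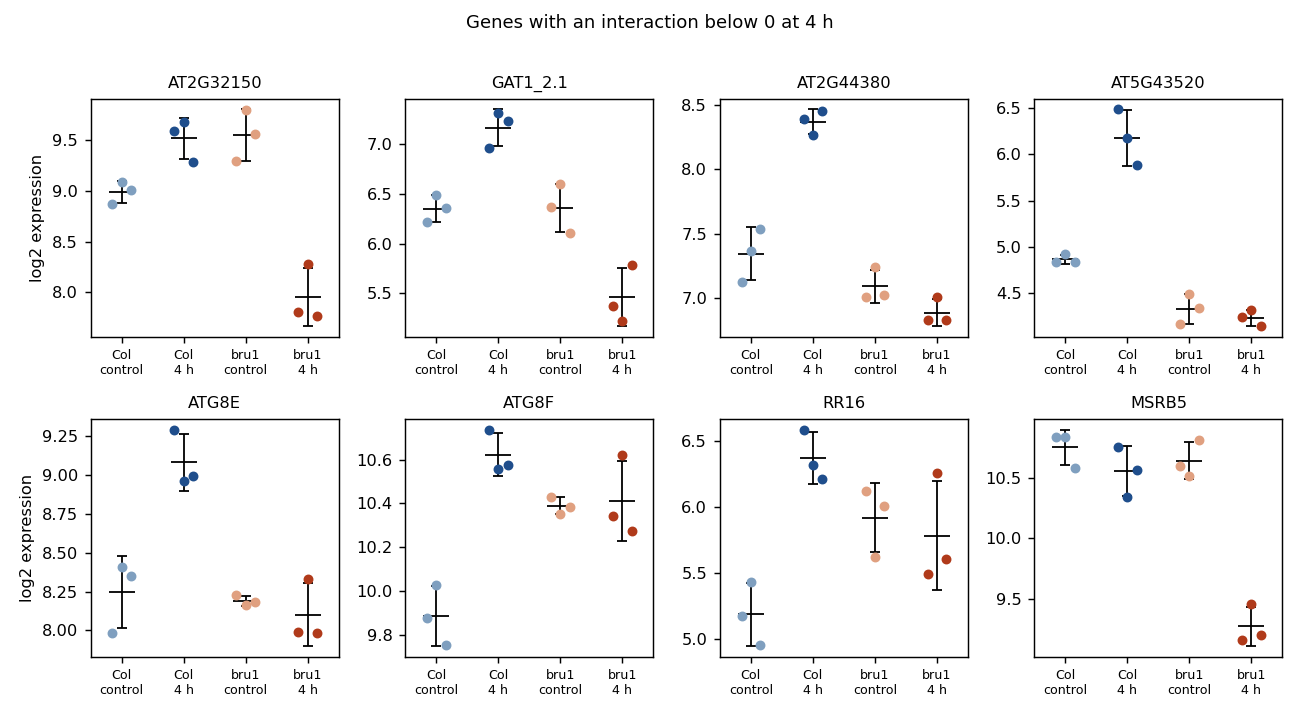
Log2 expression of 8 genes called below 0 in the 4 groups, 1 point per array (replicates 1 to 3 from left to right), with bars for the mean and SD. For 7 of the 8 genes the Col mean was higher at 4 h than in the controls, and MSRB5 is the exception, with a change of -0.19 in Col.

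Many measured chaperone genes responded strongly in both genotypes. None of the 25 measured genes of the chaperone, co-chaperone and memory lists was called in the interaction. The annotation named a single-gene probe set for only part of these lists. It did so for 11 of 20 small heat shock protein genes and 6 of 21 genes of the HSP70 system. For HSP90 and co-chaperones it was 7 of 17, and for the memory list 5 of 11. The other listed genes are not covered. Without adjustment 6 of the 25 passed 0.05 above 0 and 0 below in limma, beside 6.64% and 6.4% of all probe sets. Their median interaction was 0.31, and 17 rose in Col and 19 in bru1 at 4 h. The share of all probe sets called at 4 h, in either direction, was 36.4% in Col and 39.4% in bru1. For 11 small heat shock protein genes the median change was 4.53 in Col and 5.21 in bru1, with a median interaction of 0.21 and 1 of the 11 past 0.05 without adjustment (above 0). HSP22 (AT4G10250), of the endoplasmic reticulum, went from 4.48, 4.90 and 4.97 to 12.96, 12.76 and 12.86 in Col and from 4.54, 4.37 and 5.03 to 13.10, 13.07 and 13.29 in bru1. HSA32, which is needed to keep acquired thermotolerance, went from 6.24, 6.29 and 6.08 to 11.21, 11.31 and 10.85 in Col and from 5.97, 6.24 and 6.07 to 11.44, 11.24 and 11.59 in bru1. Genotypes overlapped in both conditions for HSA32, and in the controls for HSP22. Their interactions of 0.43 ± 0.40 (SE; adjusted p = 0.677) and 0.41 ± 0.32 (SE; adjusted p = 0.615) did not pass. HSP17.6C (AT1G53540) had 0.38 with both controls at or below the 4.393 mark, and HSP15.7 (AT5G37670), of the peroxisome, had 0.37, which turned to -0.04 without replicate 3 of Col at 4 h.

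FES1A, a nucleotide exchange factor that works with HSP70, had the largest estimate of the memory list. Its levels were 7.59, 7.88 and 7.71 in the Col controls, 10.01, 11.07 and 9.59 in Col at 4 h, 7.20, 7.11 and 7.11 in the bru1 controls and 11.47, 10.83 and 12.24 in bru1 at 4 h. The 4 h groups overlapped only through replicate 2 of each genotype. The interaction was 1.88 ± 0.55 (SE) and did not pass (adjusted p = 0.151). It passed without replicate 2 of Col at 4 h (2.302, adjusted p = 0.0374), without replicate 2 of bru1 at 4 h (2.22, adjusted p = 0.0474), without both and with array weights, over a range of 0.00584 to 0.359.

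HSC70-3 (AT3G09440), a cytosolic HSP70, was at 10.98, 11.04 and 11.16 in the Col controls, 11.48, 12.68 and 11.05 in Col at 4 h, 10.82, 10.63 and 10.75 in the bru1 controls and 12.88, 12.25 and 13.36 in bru1 at 4 h. Its interaction of 1.42 ± 0.42 (SE) was not called (adjusted p = 0.157), and became 1.897 (adjusted p = 0.00758) without replicate 2 of Col at 4 h. Of the 6 measured genes of the HSP70 system, none was called and the median was 0.92. Without adjustment 4 passed 0.05 above 0, beside 6.64% of all probe sets. Without replicate 2 of both 4 h groups, those 4 were called, beside 560 of all 22746 probe sets above 0. That setting widens the difference by construction, so these calls are no independent evidence.

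The unfolded protein response relies on membrane-bound transcription factors that are released when proteins misfold in the endoplasmic reticulum. Of 25 genes on this list, 7 could be read, and the others are not covered. All 7 measured genes had estimates above 0, from 0.47 to 1.43 with a median of 0.56, and none was called. Each passed 0.05 without adjustment, beside 6.64% of all probe sets above 0. The list's median change was 0.15 in Col and 0.89 in bru1. Past the threshold, 1 of the 7 rose in Col and 6 in bru1, beside 36.4% and 39.4% of all probe sets called in either direction. BZIP28, which encodes one of these factors, was at 8.17, 8.07 and 8.00 in the Col controls, 7.66, 8.93 and 7.80 in Col at 4 h, 8.19, 7.75 and 7.78 in the bru1 controls and 9.40, 8.77 and 9.98 in bru1 at 4 h. Its interaction was 1.43 ± 0.40 (SE; adjusted p = 0.14).

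DER1, a gene of the machinery that removes misfolded proteins from the endoplasmic reticulum, was at 8.01, 8.17 and 7.79 in the Col controls, 8.38, 9.24 and 8.19 in Col at 4 h, 8.08, 8.11 and 8.00 in the bru1 controls and 9.89, 9.24 and 10.62 in bru1 at 4 h. The 4 h groups met only at replicate 2, which had 9.24 in both genotypes. Its interaction was 1.24 ± 0.39 (SE; adjusted p = 0.178). The remaining genes were BZIP60 (0.65), BZIP17 (0.56), the co-chaperone gene ERDJ3B (0.51), the calreticulin gene CRT1b (0.48) and the calnexin gene AT5G07340 (0.47). Across the list, the median level at 4 h was 8.22, 8.93 and 8.02 in Col and 9.40, 8.77 and 9.91 in bru1. Between 3 and 7 of the 7 genes passed 0.05 without adjustment when single arrays were left out. After adjustment 2 were called without replicate 2 of Col at 4 h, 3 without that of bru1 and 6 without both. Of all 22746 probe sets, 172, 285 and 560 were called above 0 in these settings.

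Genes of the chloroplast genome encode core subunits of the photosystems, the cytochrome b6f complex, the ATP synthase and the NDH complex, besides part of the plastid's ribosome and RNA polymerase. Of 69 measured genes none was called in the interaction, and 26 (37.7%) passed 0.05 without adjustment below 0, beside 6.4% of all probe sets. The median was -0.39. By role, the median was -0.98 for 6 cytochrome b6f genes, -0.53 for 20 photosystem genes, -0.32 for 6 ATP synthase genes and -0.19 for 10 NDH genes. It was -0.01 for 15 ribosomal protein genes and -0.13 for 4 RNA polymerase genes. The ribosomal protein genes fell in both genotypes, 12 of 15 in Col and 13 of 15 in bru1, with median changes of -1.24 and -1.44. Among all probe sets, 36.4% were called at 4 h in Col and 39.4% in bru1, in either direction.

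Several of these genes were high in 2 of the 3 heated Col arrays. psbD, for a reaction centre protein of photosystem II, was at 8.34, 8.48 and 8.30 in the Col controls, 10.82, 9.23 and 10.93 in Col at 4 h, 8.30, 7.92 and 8.48 in the bru1 controls and 8.19, 8.58 and 8.11 in bru1 at 4 h. Col replicate 2 was well below its partners yet above all the bru1 arrays. Its interaction was -1.89 ± 0.44 (SE; adjusted p = 0.0821) and passed without replicate 2 of Col at 4 h (-2.44, adjusted p = 0.000251).

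psaA, of photosystem I, was at 9.67, 7.39 and 9.86 in Col at 4 h and 6.67, 7.36 and 6.53 in bru1 at 4 h, and the large Rubisco subunit gene rbcL was at 12.37, 10.71 and 12.58 against 10.15, 10.53 and 10.08. For both genes replicate 2 of Col was within 0.2 log2 units of replicate 2 of bru1. Their interactions were -1.94 (adjusted p = 0.169) and -1.70 (adjusted p = 0.135). ndhG came closest to the threshold, at -1.40 ± 0.30 (SE; adjusted p = 0.0576). Without replicate 2 of Col at 4 h, 14 of the 69 genes were called below 0, without that of bru1 4 and without both 19. Of all 22746 probe sets, 129, 120 and 246 were called below 0 in these settings.

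The probe set for the 25S ribosomal RNA, a control sequence outside the test, had a change of 1.32 in Col and 2.12 in bru1, an interaction of 0.80. Its levels at 4 h were 12.87, 13.19 and 12.40 in Col and 13.24, 13.27 and 13.25 in bru1. The 5′ probe set of the dap spike, a bacterial RNA, had an interaction of 1.02, with 4.98 on replicate 2 of the bru1 controls against 7.20 to 8.20 on the other 11 arrays. That of the thr spike had 0.70, with 4.26 on the same array against 5.64 to 6.59 on the other 11. Spikes differed in direction, with 0.20 to 0.45 for bioB, bioC and bioD and -0.40 to -0.04 for lys and phe. Control probe sets for the plant's GAPDH and actin had interactions from -0.08 to 0.52. For GAPDH these were -0.04 and 0.33 at the 3′ probe sets and 0.25 and 0.52 at the 5′ probe sets. A part of these in the plastid or other interactions was not tested. Leaving out replicate 2 of the bru1 controls gave 29 calls and 22 plastid genes below 0 without adjustment. In that setting 2804 of all 22746 probe sets passed 0.05 without adjustment, in either direction. The 11 measured genes of the mitochondrial genome had a median change of 4.86 in Col and 5.02 in bru1, with a median interaction of 0.11 and none called. Several of them had group means below the 4.393 mark. Without adjustment 1 passed 0.05 above 0, beside 6.64% of all probe sets.

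**Figure D4:**
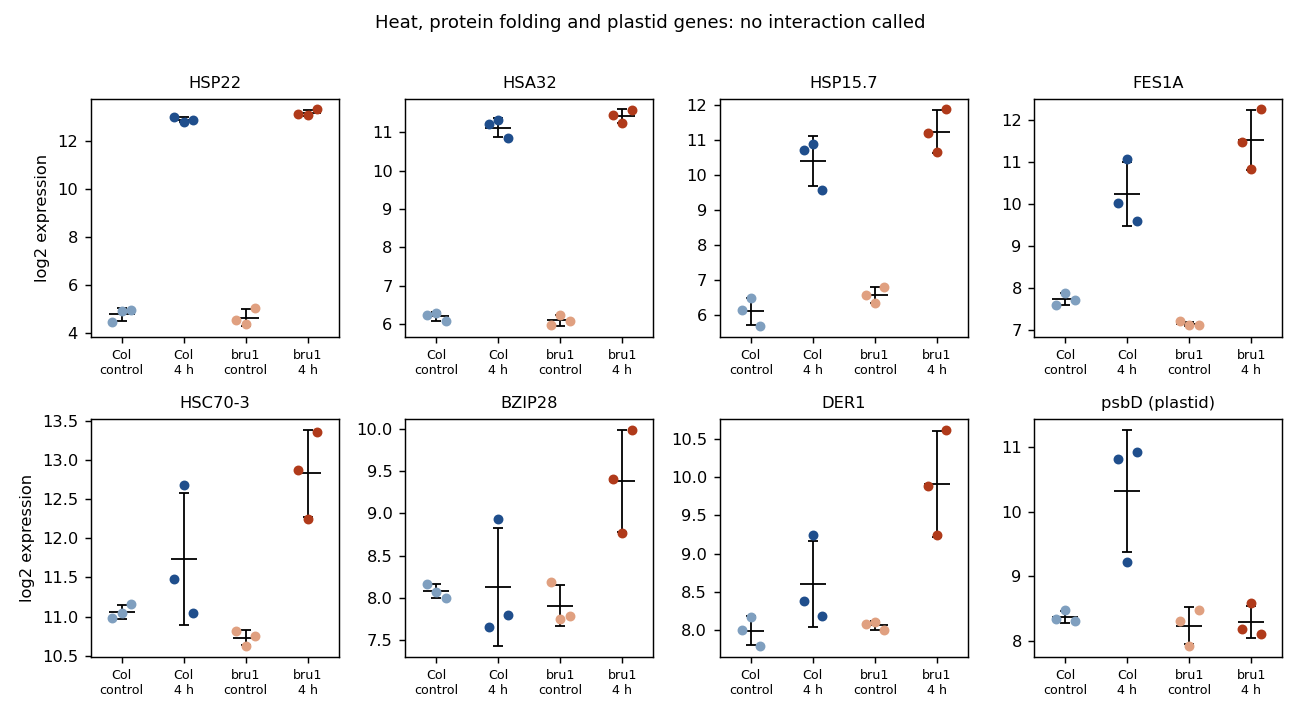
Log2 expression of 7 heat and protein folding genes and the plastid gene psbD in the 4 groups, 1 point per array (replicates 1 to 3 from left to right), with bars for the mean and SD. None was called in the interaction, and from FES1A on, replicate 2 of both genotypes at 4 h lies toward the other genotype.

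The remaining lists gave 0 calls. For 7 genes of flavonoid and anthocyanin synthesis, which fell by a median of 3.31 in Col and 4.02 in bru1 (changes of -3.31 and -4.02), the interactions ran from -0.71 to -0.07 and none passed without adjustment. For 3 measured of 14 listed salicylic acid and pathogen response genes, the interactions ran from -0.73 to -0.63. Without adjustment 2 of the 3 passed below 0, beside 6.4% of all probe sets. GI, a gene of the circadian clock, had 8.35, 8.71 and 8.99 in Col at 4 h and 9.80, 9.65 and 9.69 in bru1 at 4 h, without overlap, from overlapping controls, and an interaction of 1.22 ± 0.31 (SE) that did not pass (adjusted p = 0.106). The 2 measured of 26 listed genes of the DNA damage response, LIG4 and MND1, had 0.11 and -0.42. For heat shock factors, HSP100 proteins and chaperonins, and jasmonate response genes, no member could be read. The annotation used here named no single-gene probe set for them and does not list 8730 probe sets, so the array may still measure them.

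**Figure D5:**
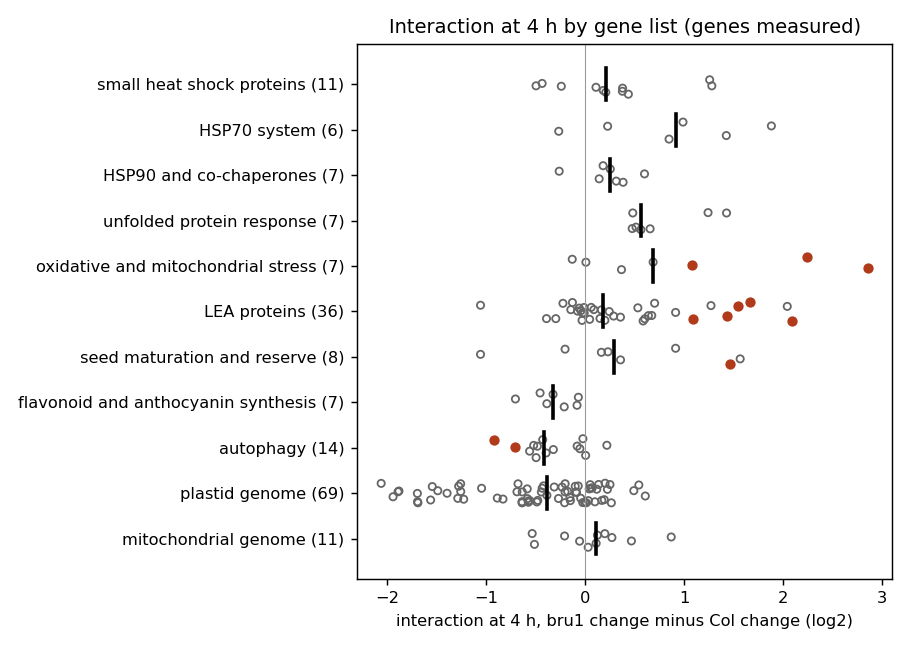
Interaction at 4 h (horizontal axis, log2) of each measured member of 11 gene lists, with the number of genes in brackets and a black line at each median. Filled red points were called, which occurred in the oxidative stress, LEA and seed lists above 0 and in the autophagy list below 0, while the 69 plastid genes reach from -2.06 to 0.61 with no call.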

How the data were processed

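Biotin-labelled total RNA was hybridised to Affymetrix ATH1 arrays, per the labels' protocols. The authors deposited log2 values, 1 per probe set and array. The submitters' processing notes name RMA without a version. Its quantile step makes the distributions of arrays alike and would hide a change in total RNA. The number of arrays limits the precision.

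All 18 arrays in 6 groups of 3 entered 1 limma model (limma 3.58.1, R 4.3.3; lmFit, eBayes; 12 residual degrees of freedom), after 64 AFFX probe sets were left out. P-values were adjusted by Benjamini-Hochberg over 22746 probe sets with a threshold of 0.05. Each p-value sets a difference of means against the spread between arrays within groups, pooled over all 6 groups and moderated across probe sets. A technical shift shared by control and heated arrays of a genotype cancels in the interaction, while one that touched only some groups cannot be told apart from it.

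Genes were named from the probe annotation given with the data and RefSeq names on TAIR10.1 (13508 probe sets with 1 locus, 13350 genes; 147 genes had more than 1 probe set, and the one with the highest mean was read). Of the remainder, 503 had several genes, 8730 are not listed and 5 had no locus. Promoter motifs and families by product name were planned but not analysed here. Group means up to 4.393, the largest lower quartile among the arrays, were treated as not shown to be above background. This mark is a convention, as no detection calls were used.

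Named were the 15 genes with the largest called interaction each way, up to 6 with opposite called changes, every measured memory gene and up to 4 called members per list, leaving out genes with all 4 means at or below 4.393. List members named beyond this rule, among them those of the unfolded protein response, HSP70 and plastid lists, were chosen after their values were seen. The comparison, its members and the gene lists were chosen with earlier results of these data known. The steps were tested on simulated data.

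Replicate numbers were checked for pairing. Over 18 pairs of arrays from different groups with the same number, deviations from the group means correlated between -0.308 and 0.14, and 1 pair exceeded 0.1. The lowest value joined replicate 2 of Col and of bru1 at 4 h. Over 36 pairs with different numbers the range was -0.257 to 0.44, and 10 exceeded 0.1, so the numbers do not pair the arrays. Alternatives were a fit on 12 arrays, eBayes with trend or robust settings, a replicate block, renewed quantile normalisation, median centring, array weights, a filter on dim probe sets, and leaving out each array.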

Additional observations from a re-analysis of the deposited data

Results flagged for a closer look

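For 11 named genes the interaction at 4 h differed from that at 52 h, where the change was taken from the same controls to seedlings 52 h after the heat. This difference was tested as its own contrast in limma, added after seeing the data, and 131 probe sets (0.576%) passed an adjusted p of 0.05. At 52 h the interaction itself was called at 27 probe sets (0.119%).

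Above 0 at 4 h, the difference between the interactions was 3.22 ± 0.56 (SE; adjusted p = 0.00979) for STZ, whose 52 h interaction was -0.36. It was 2.79 for AT2G21640 (52 h interaction -0.55), 2.00 for GH3.3 (-0.59), 1.79 for AT1G31335 (-0.16), 1.57 for AT5G45690 (-0.43) and 0.995 for AT1G64460 (0.14). Below 0 at 4 h, it was -1.49 for AT5G43520 (52 h interaction 0.08), -1.31 for AT2G32150 (-0.82), -1.13 for AT3G15630 (-0.07), -1.04 for AT2G44380 (-0.18) and -0.845 for AT2G29340 (-0.13). None of these 52 h interactions was called. The sizes for AT5G45690 and AT5G43520 are not settled, since several of their group means do not exceed 4.393. For AT4G36600 the interaction was called at 52 h too (adjusted p = 0.000924). Its Col means at 4 h and 52 h do not exceed 4.393, so the interactions of at least 1.08 and at least 1.18 are both bounds and give no size for their difference.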

How the results depend on the processing

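The 12-array fit called 116 probe sets above 0 and 111 below, with 74 and 42 at least 2-fold. Array weights gave 433 and 340, with 185 and 91. Leaving out single arrays gave 1 to 285 above and 6 to 129 below, with 1 to 187 and 5 to 73 at least 2-fold. By array, the totals were 11, 36 and 22 without Col control 1, 2 or 3, 7, 301 and 20 without Col 4 h 1, 2 or 3, 35, 29 and 9 without bru1 control 1, 2 or 3, and 12, 405 and 10 without bru1 4 h 1, 2 or 3. Without replicate 2 of both 4 h groups the counts were 560 and 246, with 349 and 119. Renewed quantile normalisation gave 19 at least 2-fold above 0 and otherwise stayed within 1.5 times the counts, as did trend, robust settings, median centring and the dim filter. With the replicate block 10 lay above 0 and 18 below, with 8 and 13 at least 2-fold. The numbers did not pair the arrays, so those lost calls are not read as weaker effects. None of the 31 called genes reversed. AT5G37670, not called, ranged from -0.0362 without Col 4 h replicate 3 to 0.912 without replicate 2 of both 4 h groups, and the median of 5 sugar response genes ranged from -0.1979 without bru1 control replicate 2 to 0.2571 without bru1 control replicate 3. Why single arrays move the counts was not tested. With 3 arrays per group, absence of a call does not show equal responses, and dim genes have only bounds.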
